A study of Mus musculus with 4 samples.

Results

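The *Ifit* genes encode the interferon-induced proteins with tetratricopeptide repeats, and the mouse cluster on chromosome 19 was described here through its 6 members *Ifit1*, *Ifit2*, *Ifit3*, *Ifit3b*, *Ifit1bl1* and *Ifit1bl2*. Members were the rows of the deposited table that carry one of these gene names, 6 of the 39186 genes listed. RNA was sequenced from LSK cells (Lin−Sca-1+c-Kit+), the sorted fraction of fetal liver in which hematopoietic stem and multipotent progenitor cells are enriched, to compare *Pich*-KO with *Pich*-WT embryos. All samples were of strain C57BL/6, with 2 samples labelled *Pich*-KO and 2 labelled *Pich*-WT, and no other allele or treatment was named. PICH, listed as *Ercc6l*, is a DNA translocase found on the ultrafine DNA bridges of anaphase, and its gene is X-linked. The KO allele lacks a few bases near the start of the coding sequence and is carried by every cell of the embryo, not by the blood lineage alone. The labels give no embryonic age and do not say whether the samples of a group came from separate embryos, so p-values measure the spread between these samples only.

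IFIT proteins are barely made in resting cells and are among the most strongly induced products of type I interferon. Interferon binds the receptor IFNAR1-IFNAR2, the kinases JAK1 and TYK2 are activated, and the transcription factor complex ISGF3, which includes STAT2 and IRF9, binds a short promoter motif, the interferon-stimulated response element (ISRE). IFIT1 binds RNA whose cap lacks ribose methylation and keeps it from being translated. IFIT3 has been described as a binding partner that can stabilize IFIT1, which was not tested here for the mouse copies. IFIT2 and IFIT1 have also been found on the translation initiation factor eIF3.

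The members lie within 99.3 kb on chromosome 19, and the coordinates of the table match GRCm38. In the order of the chromosome, *Ifit2* (ENSMUSG00000045932) runs from 34550694 to 34576419 on the plus strand and *Ifit3* (ENSMUSG00000074896) from 34583531 to 34588731 on the plus strand. *Ifit1bl1* (ENSMUSG00000079339) follows from 34592888 to 34601968 on the minus strand, and *Ifit3b* (ENSMUSG00000062488) from 34607970 to 34613401 on the plus strand. *Ifit1bl2* (ENSMUSG00000067297) runs from 34617049 to 34640743 on the minus strand, head to head with *Ifit1* (ENSMUSG00000034459), which runs from 34640871 to 34650009 on the plus strand. All 6 are annotated as protein-coding.

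The promoters are shown because the pathway ends on them. RefSeq promoter windows on GRCm38.p6, each from 250 bases before to 50 bases after a start site, were searched on both strands for the ISRE written as GAAANNGAAA, where N is any base. The motif was in 3.44% of 32851 mouse promoter windows, and at least 2 copies were in 0.225%. All 6 members had a window. *Ifit1*, *Ifit3* and *Ifit3b* each had 2 copies, *Ifit1bl1* had 1 copy at each of its 2 start sites, and neither window of *Ifit2* held these letters. A match is a description of the letters and not a measured binding site. Below, each stretch is written 5′ to 3′ on the strand of its gene, with the motif in capitals, here always in its reverse-complement form. None of them overlaps an annotated exon. The stretches of *Ifit1*, *Ifit3*, *Ifit3b* and the upstream start of *Ifit1bl1* are intergenic, and that of the downstream start of *Ifit1bl1* is intronic.
Ifit1, chr19:34640744-34640870, plus strand: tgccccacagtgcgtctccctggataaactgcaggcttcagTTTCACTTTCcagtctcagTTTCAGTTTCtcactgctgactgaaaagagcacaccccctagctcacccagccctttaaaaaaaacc
Ifit3, chr19:34583365-34583424, plus strand: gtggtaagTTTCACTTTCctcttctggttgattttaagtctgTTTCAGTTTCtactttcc
Ifit3b, chr19:34607761-34607820, plus strand: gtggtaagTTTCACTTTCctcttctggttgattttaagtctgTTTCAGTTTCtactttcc
Ifit1bl1 upstream start, chr19:34602050-34602097, minus strand: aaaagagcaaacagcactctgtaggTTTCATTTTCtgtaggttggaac
Ifit1bl1 downstream start, chr19:34599428-34599475, minus strand: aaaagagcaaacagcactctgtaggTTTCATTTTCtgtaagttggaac

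The *Ifit1* stretch is the whole 127 bases between the annotated ends of *Ifit1* and *Ifit1bl2*. The RefSeq start sites of this divergent pair are 146 bases apart, so the same 2 motif copies stand at −104 to −95 and −85 to −76 from the start of *Ifit1* and at −51 to −42 and −70 to −61 from that of *Ifit1bl2*. A second start of *Ifit1bl2*, inside the gene, had no copy in its window. The printed 60 bases of *Ifit3* and *Ifit3b* differed at 0 positions, although they stand at a different distance from the annotated starts, and the full windows were 75.9% identical.

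The copies were also close in the coding sequence. *Ifit3* and *Ifit3b* were 99.1% identical over 1209 aligned bases, and *Ifit1bl1* and *Ifit1bl2* were 87.5% identical. *Ifit1* was 74.0% identical to *Ifit1bl1* and 73.8% to *Ifit1bl2*, and all other pairs were between 51.9% and 56.5%. Of the windows of 50 bases in the annotated transcripts, 51.2% of those of *Ifit3* and 44.5% of those of *Ifit3b* occur in another member without a mismatch, against 7.13% for *Ifit1*, 6.45% for *Ifit1bl1*, 9.34% for *Ifit1bl2* and 0 for *Ifit2*. How reads that fit more than one gene were assigned is not given in the sources used here, so the separate values of *Ifit3* and *Ifit3b* are uncertain.

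The values are reads per gene divided by one size factor per sample, called normalized counts here, and between 14703215 and 20933919 reads were assigned to genes per sample. *Ercc6l* (ENSMUSG00000051220, chromosome X, 102141716 to 102157091, minus strand) had 1142 and 1232 normalized counts in *Pich*-KO against 772 and 661 in *Pich*-WT. Its adjusted p was 0.00887 (limma, Benjamini-Hochberg), and reads outside a small deletion do not check the genotype labels. *Pich*-WT sample 2 had 0 reads on 4 Y-linked genes, which had 1607 to 2848 reads in each of the other samples, so *Pich*-WT sample 2 stands apart. The groups may therefore differ in sex, which the labels do not give. What part this has in the values was not tested. Without it, 0 of all genes passed the threshold with limma (5716 at an unadjusted p under 0.05), so each call below, in the members and in the other genes, rests on a fit that includes it. In bulk samples, fewer cells of a type and less RNA per cell cannot be told apart.

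In *Pich*-KO LSK cells, 3 of the 6 members were higher at an adjusted p under 0.05 (limma), and 0 were lower by limma, also at an unadjusted p under 0.05, by edgeR or by DESeq2. The higher members were *Ifit1*, with a fitted rise of 14.0-fold, *Ifit3* (3.79-fold) and *Ifit2* (2.43-fold). Among all 32428 genes tested, 7.58% were higher at this threshold and 9.6% were lower. In 5 of the 6 members, both *Pich*-KO samples were above both *Pich*-WT samples, which was the case for 28.9% of all genes tested. The median log2 fold change of the 6 members was 1.43, against 0.03 over all genes tested.

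*Ifit1*, the sensor of incompletely methylated caps, had 2574 and 1238 normalized counts in *Pich*-KO samples 1 and 2 and 113 and 143 in *Pich*-WT samples 1 and 2. The lower *Pich*-KO sample was 8.66-fold above the higher *Pich*-WT sample, so the groups were far apart, while the *Pich*-KO samples differed from each other 2.08-fold. The group values were 1906 ± 945 and 128 ± 21.5 (SD, n = 2), 3.80 ± 0.32 on the log2 scale (limma estimate ± standard error, adjusted p = 0.000205, Benjamini-Hochberg). It was 3.28 without *Pich*-KO sample 1 (adjusted p = 0.0396, limma) and 3.98 without *Pich*-WT sample 2 (adjusted p = 0.224, limma).

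*Ifit2*, which has been linked to eIF3 and to apoptosis, had 2096 and 857 normalized counts in *Pich*-KO against 502 and 604 in *Pich*-WT. It had the highest *Pich*-WT counts of the members, and its groups did not overlap, but *Pich*-KO sample 2 was only 1.42-fold above *Pich*-WT sample 2. The group values were 1477 ± 876 and 553 ± 72.3 (SD, n = 2), 1.28 ± 0.36 on the log2 scale (limma estimate ± standard error, adjusted p = 0.0436). Without *Pich*-KO sample 1 the log2 fold change was 0.64 (adjusted p = 0.158, limma), and without *Pich*-WT sample 2 it was 1.42 (adjusted p = 0.399, limma).

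*Ifit3* had 1699 and 522 normalized counts in *Pich*-KO against 231 and 266 in *Pich*-WT. Again the groups did not overlap and sample 1 stood above sample 2 within *Pich*-KO, here 3.26-fold. The group values were 1111 ± 833 and 248 ± 25.1 (SD, n = 2), 1.92 ± 0.46 on the log2 scale (limma estimate ± standard error, adjusted p = 0.0235). Without *Pich*-KO sample 1 it was 1.07 (adjusted p = 0.0756, limma), and without *Pich*-WT sample 2 it was 2.03 (adjusted p = 0.374, limma).

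The near-identical copy *Ifit3b* had 345 and 107 normalized counts in *Pich*-KO against 60.2 and 79.0 in *Pich*-WT. All *Pich*-KO values were above the *Pich*-WT values, with 1.46 ± 0.49 on the log2 scale (limma estimate ± standard error, adjusted p = 0.0861), which did not pass the threshold. *Ifit3* and *Ifit3b* summed, which does not depend on how reads were split between them, came to 2044 and 629 in *Pich*-KO against 291 and 345 in *Pich*-WT. The sum had a log2 fold change of 1.84, close to that of *Ifit3* alone.

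*Ifit1bl1*, an *Ifit1*-like gene whose product is little studied, had 330.5 and 141 normalized counts in *Pich*-KO against 64.1 and 105 in *Pich*-WT. The groups did not overlap, but the log2 difference of 1.38 ± 0.42 (limma estimate ± standard error, adjusted p = 0.0601) missed the threshold. *Ifit1bl2*, the divergent neighbour of *Ifit1*, had 27.3 and 14.8 in *Pich*-KO against 3.91 and 20 in *Pich*-WT. It rested on 5 to 25 reads per sample, and its groups overlapped (1.06 ± 0.74 on the log2 scale, adjusted p = 0.419, limma). Although this gene and *Ifit1* share the printed promoter stretch, the higher *Pich*-WT sample of *Ifit1bl2* was above its lower *Pich*-KO sample, an overlap that rests on *Pich*-WT sample 2. Its log2 fold change was 0.01 without *Pich*-WT sample 1 and 2.11 without *Pich*-WT sample 2 (adjusted p = 0.288, limma).

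**Figure D1:**
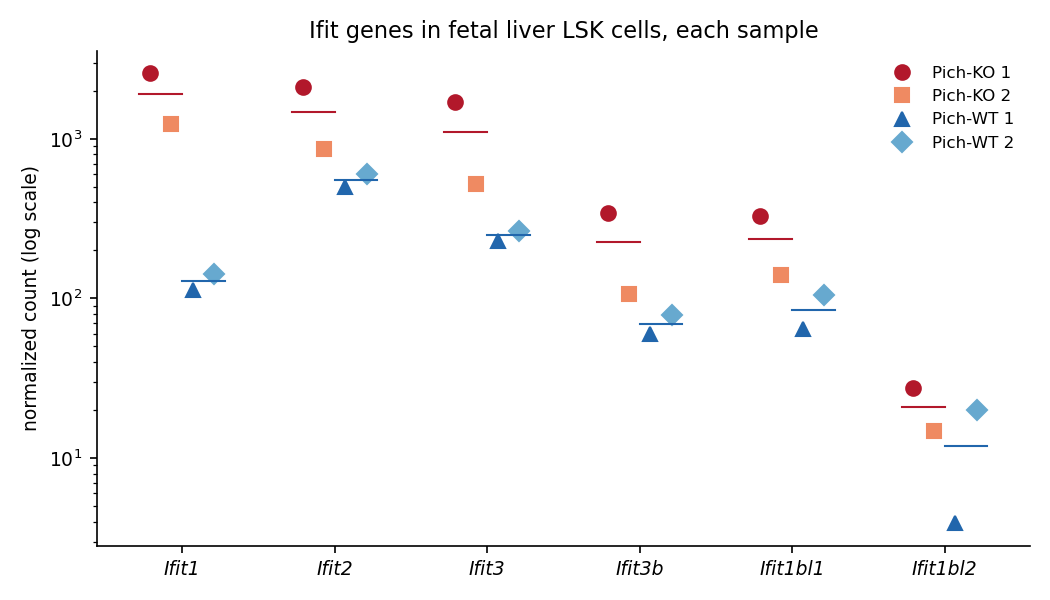
Normalized counts of the 6 *Ifit* genes (log scale) in each *Pich*-KO and *Pich*-WT sample, with horizontal lines at the group means (n = 2). Both *Pich*-KO samples lie above both *Pich*-WT samples in 5 genes, *Pich*-KO sample 1 is above *Pich*-KO sample 2 in all 6, and *Ifit1bl2* overlaps.

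A count model on the recovered whole reads called more of the members. By edgeR's quasi-likelihood test with TMM scaling, 5 of the 6 were higher, against 18.6% of the 16608 genes tested. *Ifit3b* then had an adjusted p of 0.0431 and *Ifit1bl1* one of 0.0394 (edgeR, Benjamini-Hochberg), and *Ifit1bl2* one of 0.412. DESeq2 called 4 members, among them *Ifit3b* and *Ifit1bl1*, with an adjusted p of 0.0626 for *Ifit2* (DESeq2). With limma, 1 member was called without *Pich*-KO sample 1 (*Ifit1*), and 0 without *Pich*-KO sample 2, *Pich*-WT sample 1 or *Pich*-WT sample 2, fits in which 0 of all genes passed. In those 3 fits, 5, 1 and 1 members had an unadjusted p under 0.05.

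The fitted log2 fold change of each member was above 0 under every alternative in which it was tested. *Ifit1* ranged from 3.74 to 3.93 over the settings that keep all 4 samples and from 3.28 to 4.33 when a sample was left out. *Ifit2*, *Ifit3*, *Ifit3b* and *Ifit1bl1* were lowest without *Pich*-KO sample 1, at log2 fold changes of 0.64, 1.07, 0.62 and 0.77.

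**Figure D2:**
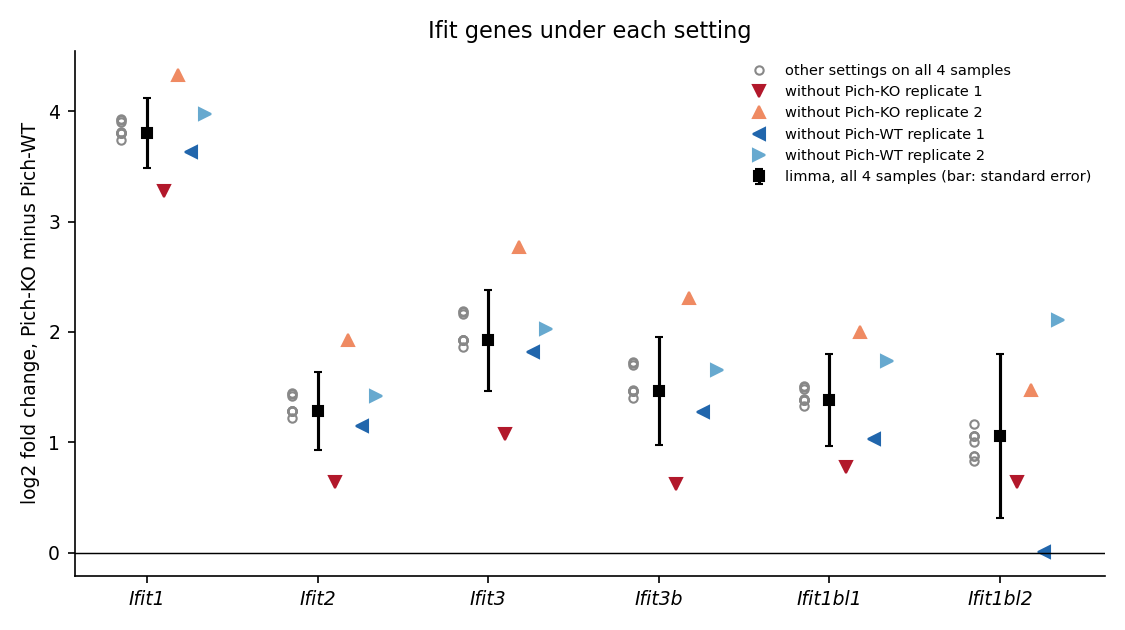
Log2 fold change (*Pich*-KO minus *Pich*-WT) of each *Ifit* gene from limma on all 4 samples (black square, bar the standard error), under other settings on all 4 samples (open circles) and with a sample left out (triangles). *Ifit1* lies above 3 throughout, and the values of *Ifit2*, *Ifit3*, *Ifit3b* and *Ifit1bl1* without *Pich*-KO sample 1 are their lowest.

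The *Pich*-KO samples differed from each other in one direction over the whole cluster. *Pich*-KO sample 1 was above sample 2 by 1.85-fold (*Ifit1bl2*) to 3.26-fold (*Ifit3*) in all 6 members. Over 11794 genes with a mean of at least 50 normalized counts, this ratio had a median of 1.01, and its central 95% lay between 0.605 and 2.29. The 6 members ranked above 94.6% to 99.3% of these genes. The lowest rank is that of *Ifit1bl2*, which is itself below that mean. Its ratios rest on 5 to 25 reads per sample and hold more counting noise. Without it the lowest rank was 96.6% (*Ifit1*). In *Pich*-WT, sample 1 was below sample 2 in all 6 members, at ratios of 0.195 (*Ifit1bl2*) to 0.867 (*Ifit3*), where the median over genes was 1.05.

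Levels of different members were compared per kb of annotated transcript, since longer transcripts collect more reads. Reads that fit both *Ifit3* and *Ifit3b* may have been split or left out. The places of these genes, and their shares and ratios below, are therefore uncertain. In *Pich*-WT, *Ifit3* (132 and 152 normalized counts per kb) and *Ifit2* (128 and 154) led and changed places between the samples. *Ifit1* came next at 42.4 and 53.8, *Ifit3b* (30.1 and 39.5) and *Ifit1bl1* (28.2 and 46.2) did not separate from each other, and *Ifit1bl2* was lowest at 1.16 and 5.94. In *Pich*-KO, *Ifit1* (969 and 466 per kb) and *Ifit3* (974 and 299) shared the first places, and *Ifit2* (534 and 218) came after them in both samples.

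*Ifit1* held a larger part of the cluster's RNA in both *Pich*-KO samples. Its share of the members' summed normalized counts per kb was 34.6% and 42.3% in *Pich*-KO against 11.7% and 11.9% in *Pich*-WT. The share of *Ifit2* was 19.1% and 19.8% in *Pich*-KO against 35.3% and 34.1% in *Pich*-WT. *Ifit3* overlapped, with 34.8% and 27.1% against 36.5% and 33.8%.

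The ratio of *Ifit1* to *Ifit2* per kb was 1.81 and 2.13 in *Pich*-KO against 0.332 and 0.350 in *Pich*-WT. The ratio differed little within each group although the *Pich*-KO samples differed more than 2-fold in each gene. Its mean log2 difference between groups was 2.53. The ratio of *Ifit1* to *Ifit3* was 0.995 and 1.56 against 0.321 and 0.353, and that of *Ifit3* to *Ifit3b* was 5.65 and 5.60 against 4.39 and 3.86. For each of 6 such ratios the groups did not overlap, and the two-sided exact permutation p was 0.333, the smallest that 2 against 2 samples allow. With the samples in random order, a ratio would separate in either direction with this same probability. Most of the ratios have *Ifit1* as numerator, so they are not 6 separate results.

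**Figure D3:**
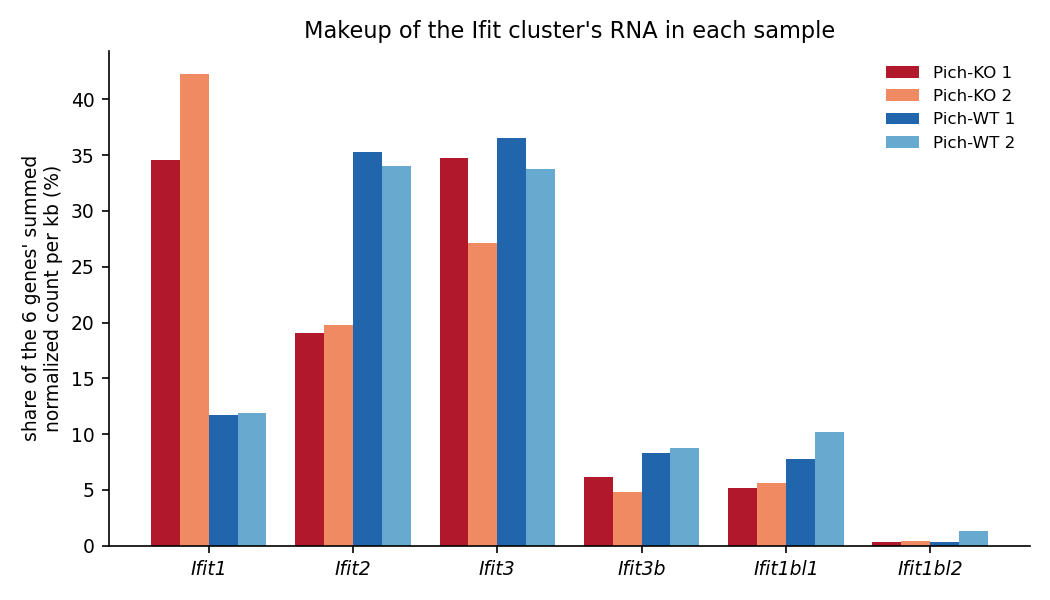
Share (%) of each *Ifit* gene in the summed normalized counts per kb of the 6 genes, one bar per sample. *Ifit1* holds 34.6% and 42.3% in *Pich*-KO against 11.7% and 11.9% in *Pich*-WT, and *Ifit2* goes the other way.

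The genes on either side of the cluster were examined next. Of 14 genes of the table within 500 kb on either side, 13 were tested, of which 1 was higher and 3 were lower, with a median log2 fold change of −0.84. Of all genes tested, 7.58% were higher and 9.6% were lower. On the side of *Ifit2*, the nearest gene was *Lipa*, which encodes lysosomal acid lipase, 23.2 kb away. It had 1194 and 1003 normalized counts in *Pich*-KO against 4091 and 4081 in *Pich*-WT, and fell by 1.90 on the log2 scale (standard error 0.12, adjusted p = 6.7e-05, limma).

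Next to it, the long noncoding RNA gene *Gm26902* had 0.782 to 6.00 normalized counts (adjusted p = 0.835, limma). On the side of *Ifit1*, *Slc16a12*, of the monocarboxylate transporter family, was 18.4 kb away, with 16.4 and 18.2 against 17.2 and 35.0 normalized counts (adjusted p = 0.575, limma). *Pank1*, a pantothenate kinase gene 161 kb away, had 149 and 114 against 316 and 360.0, and fell by 1.36 (adjusted p = 0.00404, limma). The other called neighbours were the death receptor gene *Fas*, which fell by 1.54 (adjusted p = 0.037, limma), and the deubiquitinase gene *Stambpl1*, which rose by 0.62 (adjusted p = 0.0455, limma). Neither gene next to the cluster, *Lipa* or *Slc16a12*, was higher in *Pich*-KO, but *Slc16a12* rested on 15 to 35 reads per sample.

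**Figure D4:**
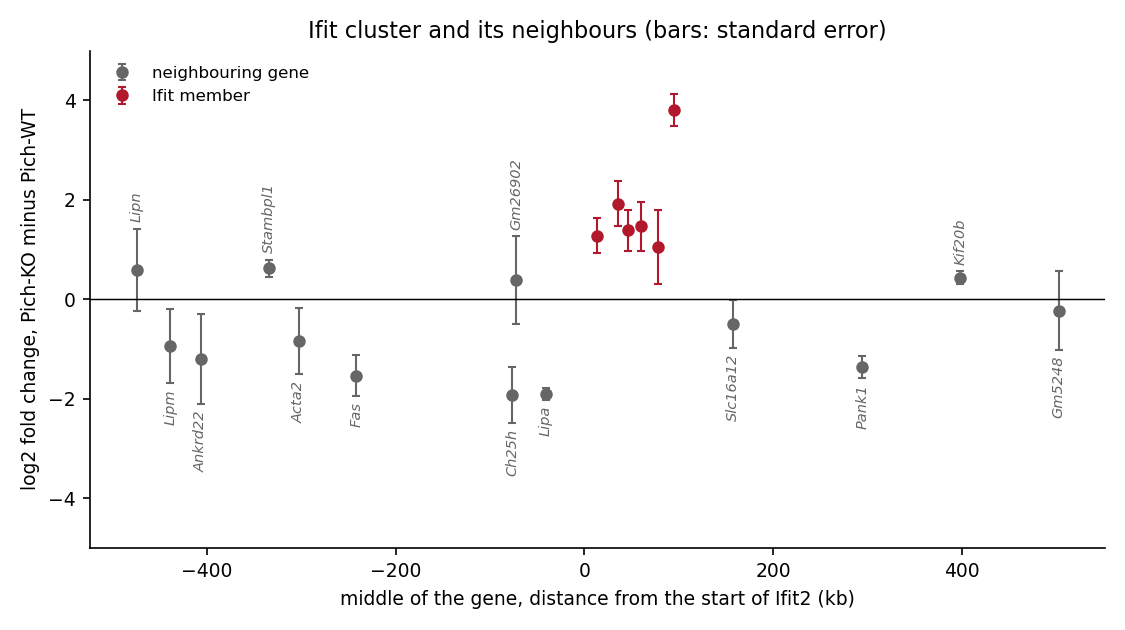
Log2 fold change (*Pich*-KO minus *Pich*-WT, bars the standard error) of the 6 *Ifit* genes and the 13 tested neighbours against the distance of each gene's middle from the start of *Ifit2* (kb). The members lie between 1.06 and 3.80, and the nearest neighbours *Lipa* and *Slc16a12* lie at −1.90 and −0.49.

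The genes upstream of the cluster in the interferon route were read from 5 lists with 32 genes, of which 29 were tested, 12 were higher and 6 were lower. Of all genes tested, 7.58% were higher and 9.6% were lower. In the fit to genes with at least 10 reads in every sample, 9 of 19 were higher and 5 were lower. In that fit, 2937 and 3135 of all 13924 genes were higher and lower. Among 13 interferon genes, *Ifna1*, *Ifna2* and *Ifna4* were higher and *Ifng* was lower. Over the 10 of them that were tested, the median log2 fold change was 2.09. It was 1.98 with the 3 genes without a *Pich*-WT read at the bound that 3 reads per library allow. These 3 passed the filter on the mean through *Pich*-KO reads only. Of them, *Ifna9* and *Ifna11* had 9 and 4 reads, all in *Pich*-KO sample 1. The reads on *Ifna2* numbered 26 and 6 in *Pich*-KO against 0 and 0 in *Pich*-WT, a mean at least 6.58-fold higher against that bound (adjusted p = 0.0151, limma).

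*Ifnb1*, the interferon-β gene, had 22.9 and 13.6 normalized counts in *Pich*-KO against 6.25 and 5 in *Pich*-WT (log2 fold change 1.5, adjusted p = 0.112, limma). *Ifng*, the type II interferon gene, was the lowest, at 15.3 and 9.09 against 57.8 and 101. The *Ifna* genes are close copies of each other on a few reads each, so their separate values are uncertain.

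Genes from the receptor to ISGF3 went both ways. *Stat2* had 1496 and 1158 normalized counts in *Pich*-KO against 627 and 627 in *Pich*-WT, without overlap between the groups. It rose by 1.07 on the log2 scale (adjusted p = 0.00254, limma) and *Irf9* by 0.75 (adjusted p = 0.00433, limma). The receptor chain gene *Ifnar1* fell by 0.56 (adjusted p = 0.0185, limma) and the kinase gene *Jak1* by 0.75 (adjusted p = 0.0135, limma). *Ifnar2* (−0.27) and *Tyk2* (−0.25) did not pass the threshold.

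Of the 3 IRF activators, which can bind the ISRE without ISGF3, *Irf7* was the one that rose. It had 9487 and 4981 normalized counts in *Pich*-KO against 1356 and 1615 in *Pich*-WT (log2 fold change 2.22, adjusted p = 0.000916, limma). Like the *Ifit* members, it had more in the first *Pich*-KO sample than in the other. *Irf1* (0.08) and *Irf3* (0.19) did not pass the threshold, and the median of the list was 0.19.

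Of 4 feedback inhibitors, 1 was higher and 2 were lower, with a median of −0.23. Over all genes tested, the shares were 7.58% higher and 9.6% lower. *Usp18*, which blocks signalling at IFNAR2, had 6690 and 3071 normalized counts against 230 and 245 (log2 fold change 4.25, adjusted p = 0.000113, limma). *Socs3*, an inhibitor of cytokine receptors, was the lowest at −1.58 (adjusted p = 0.00826, limma). Of 5 RNA sensors and effectors, 4 were higher and 1 was lower, with a median of 1.84. *Dhx58*, encoding the RIG-I-like receptor LGP2, was highest at 2.09 (adjusted p = 0.000323, limma), and *Mavs*, their mitochondrial adaptor, was lowest at −0.59 (adjusted p = 0.0135, limma).

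Genes for the partners of IFIT action were read from 2 lists. Of 14 subunits of eIF3, 10 were higher and 0 were lower (limma, and 0 also by edgeR and DESeq2), with a median log2 fold change of 0.42. Of all genes tested, 7.58% were higher (limma). In the fit to the 13924 genes with at least 10 reads in every sample, 2937 were higher. *Eif3j2* was the highest subunit at 1.54 without passing the threshold (adjusted p = 0.0593, limma), *Eif3j1* was the lowest at 0.16 (adjusted p = 0.488, limma), and the called subunits lay between 0.34 and 0.67. Of 4 matched enzymes of mRNA capping and cap methylation, 1 was higher and 0 were lower, with a median of 0.40. This was the cap guanine methyltransferase gene *Rnmt* (log2 fold change 0.46, adjusted p = 0.0214, limma). *Cmtr1*, which methylates the ribose of the first transcribed nucleotide, was highest at 0.85 (adjusted p = 0.0964, limma), and its relative *Cmtr2* was lowest at −0.19 (adjusted p = 0.611, limma).

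**Figure D5:**
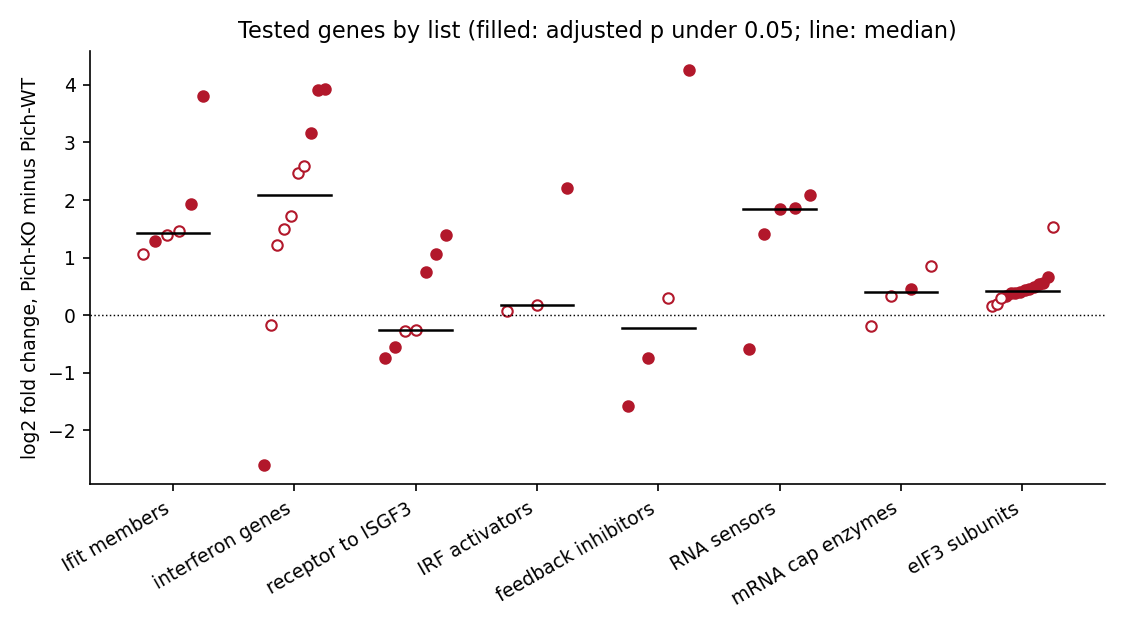
Log2 fold change (*Pich*-KO minus *Pich*-WT) of the tested genes in each list, with filled points for an adjusted p under 0.05 (limma) and a line at the list's median. The medians are 1.43 for the *Ifit* members, 1.84 for the RNA sensors and 0.42 for the eIF3 subunits.

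The 5 genes whose profile over the 4 samples was most like the mean profile of the members were *Gm4951*, *Eda2r*, *Olfr56*, *H2-T24* and *Ppp1r3a*. The measure was the Euclidean distance of centred log2(value + 1), over 16274 candidate genes with a mean of at least 10. Their distances were 0.278 to 0.369, while the members themselves lay 0.438 (*Ifit1bl1*) to 2.01 (*Ifit1*) from their own mean profile. *Gm4951*, the closest, had 469 and 196 normalized counts in *Pich*-KO against 77.4 and 135 in *Pich*-WT. *H2-T24*, a nonclassical MHC class I gene, had 736 and 333 against 141 and 173. *Olfr56* and *Ppp1r3a* were not called (adjusted p = 0.0886 and 0.0981, limma), and *Ppp1r3a* had 4 to 19 reads per sample. All 6 members entered the mean profile with equal weight, among them *Ifit1bl2* with 5 to 25 reads per sample.

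Markers of other cell types moved with the groups. Over all genes tested, the shares were 7.58% higher and 9.6% lower, here and for the lists in the next paragraph. All 13 macrophage markers were lower in *Pich*-KO, with summed normalized counts of 7332 to 8534 against 60705 to 63101 in *Pich*-WT, and so were all 6 endothelial markers (3482 to 4732 against 21231 to 30434). Of 10 erythroid markers 9 were lower (34406 to 36800 against 140273 to 198896), and of 8 hepatocyte markers 5 were lower (2554 to 3037 against 4258 to 4788). Of 9 granulocyte markers 3 were higher, *Mpo*, *Prtn3* and *Ctsg* (summed over all 9, 64513 to 121501 against 16683 to 19389). *Mpo* made up most of this sum, with 54647 and 90492 normalized counts in *Pich*-KO against 10351 and 12533 in *Pich*-WT. The other 6 were not called, and the groups overlapped in each of them.

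Of 7 markers of plasmacytoid dendritic cells, which are strong producers of interferon, 6 were tested and 2 were higher, *Bst2* and *Cox6a2* (summed 7728 to 10061 against 3279 to 4074). *Bst2*, itself induced by interferon and named after its values were seen, had 8001 and 6141 normalized counts in *Pich*-KO against 1674 and 1460.0 in *Pich*-WT. Without it the sums overlapped, at 1587 to 2059 against 1819 to 2400. *Cox6a2* was highest at a log2 fold change of 2.38 and the chemokine receptor gene *Ccr9* lowest at −1.31. *Siglech*, a defining marker named after its values were seen, had 113 and 19.3 normalized counts in *Pich*-KO against 163 and 70.0 in *Pich*-WT. Of 10 lymphoid markers, 1 was higher and 2 were lower (2092 to 2552 against 2564 to 2595). Of 10 LSK and stem cell genes, 1 was higher (*Ly6a*, the Sca-1 gene of the sort, itself induced by interferon) and 4 were lower (*Procr*, encoding the EPCR marker of stem cells, lowest at −2.88), at 17044 to 28288 against 24896 to 26577. Every marker had at least 1 read. What part these shifts have in the values of the *Ifit* genes was not tested.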

How the data were processed

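RNA of sorted fetal liver LSK cells from 2 *Pich*-KO and 2 *Pich*-WT samples was made into libraries with the Illumina TruSeq RNA kit, which does not mark strand, so reads of overlapping genes on opposite strands cannot be told apart. The submitters' processing notes name Bowtie 0.12.2 and older mouse builds, but 97.8% of the 39163 genes found in GENCODE M21 have the same start and end in the table, so GRCm38 was used. The counter is not given in the sources used here. The authors deposited a signal, reads per gene divided by one size factor per sample, and gene length, beside group means, fold changes and p-values of their own, which were not used. All values (100%) were whole multiples of the worth of one read within 0.01. The members and all gene lists were chosen with earlier results of these data known. limma 3.58.1 (R 4.3.3) was fitted on log2(value + 1) with a variance trend to the 32428 genes whose mean reached 1, with Benjamini-Hochberg adjustment and a threshold of 0.05, so fold changes understate those of low genes. edgeR 4.0.16 and DESeq2 1.42.0 on the recovered reads were alternatives. limma and edgeR were also run on simulated counts with the same spread for every gene. That spread was smaller than between the *Pich*-KO samples in *Ifit1*, *Ifit2* and *Ifit3*, so the simulation does not check the tests at the spread of these genes. The named genes are the members, *Ercc6l*, of each list the tested genes with the highest or lowest log2 fold change, the genes from the receptor to ISGF3 (except 1 that is not reported here) and of the IRF activators, the 2 nearest neighbours on each side and any called within 500 kb, and the 5 most similar profiles. Of the lists, *Ramac* and *Fam103a1* were not matched and are not analysed here. Coding sequences were aligned from GENCODE M21 in place of proteins.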

Additional observations from a re-analysis of the deposited data

How the results depend on the processing

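Of the 6 members, 3 were higher with the reported limma fit. This count was 1 at a pseudocount of 0.1, 1 with low genes kept in, 0 without a variance trend, and 5 with edgeR under TMM or upper-quartile scaling. It stayed within 1.5 times with at least 10 reads in every sample (4), with DESeq2 (4) and with scaling to the library total (2). Without a variance trend no list had a call (0 interferon-route, 0 partner and 0 neighbouring genes), as for all genes (0 of 32428, with 7377 at an unadjusted p under 0.05). The count of higher neighbours, 1, was 0 at that pseudocount, with low genes kept in and with library-total scaling, and 2 with at least 10 reads, DESeq2 and both edgeR scalings. The cause was not tested.

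The labels give no meaning to the replicate numbers. Deviations from the group means had a correlation of 0.0117 between samples of one number (11794 genes, not independent of each other), so the numbers were taken as names. Entered as a replicate block, they gave 5 higher members and 2 higher neighbours.

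Leaving out a sample leaves a group of 1, assumed to vary like the other group. Higher members then numbered 0 to 1, higher and lower interferon-route genes 0 to 6 and 0 to 0, higher partners 0 to 0, higher and lower neighbours 0 to 0 and 0 to 1, and all genes 0 to 548 higher and 0 to 1193 lower. The highest of these counts were those without *Pich*-KO sample 1. The log2 fold change of *Ifit3* with *Ifit3b* ran from 0.99 to 2.69, that of *Ifit1* with its 2 like genes from 2.66 to 3.73, and that of all 6 members summed from 1.40 to 2.70. Scaling moved the median of all genes by under 0.1 on the log2 scale (0.03 to −0.03).

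*Ifit1bl2* rested on 5 to 25 reads a sample, and its groups overlapped. The other members had 77 to 2360 reads in each sample.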

Other observations

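Summed over the 6 members, the cluster had 7072 and 2879 normalized counts in *Pich*-KO against 973 and 1217 in *Pich*-WT, 2.05 higher on the log2 scale. *Ifit1* with its like genes *Ifit1bl1* and *Ifit1bl2* came to 2932 and 1394 against 181 and 268, a difference of 3.19.

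Other motifs were searched in the same promoter windows. The letters TTCNNNGAA, those of the gamma-activated site, were in 8.30% of all windows and in 1 window among the members, that of the upstream start of *Ifit2*, at −241 to −233. The letters TATAAA were in 13.6% of all windows. Among the members they were at −35 to −30 from the upstream start of *Ifit1bl1* and at −30 to −25 from the inner start of *Ifit1bl2*, besides 1 copy further upstream at each start of *Ifit1bl1*. These are descriptions of letters, not of sites in use.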
